A study of Mus musculus with 8 samples.

Results

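Cyclic AMP phosphodiesterases are the enzymes that break down cyclic AMP, and 8 genes of this family were followed here among the 48321 gene symbols of the deposited count tables: *Pde3b*, *Pde2a*, *Pde1b*, *Pde4a*, *Pde4b*, *Pde4d*, *Pde7a* and *Pde8a*. They were chosen by symbol, and all 8 passed the filter on low counts that left 12597 genes for testing. RNA had been measured by sequencing in sorted CD8+ T cells from the spleens of C57BL/6 mice, in 4 groups of 2 libraries each: WT at day 0, KO at day 0, WT at day 5 and KO at day 5. Day 0 cells were taken as peripheral cells and day 5 cells came after in vitro stimulation, whose conditions are not given in the sources used here. The KO mice carried *Satb1* F/F with E8I-cre, a recombinase transgene active in the mature CD8 lineage, so that *Satb1*, which encodes a chromatin-organising protein of T cells, is targeted late. The alleles and Cre status of the WT mice are not given in the sources used here. Nothing states that the 2 libraries of a group came from separate animals, so p-values measure only the spread between these samples, which may be technical.

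Cyclic AMP is made by adenylyl cyclases downstream of receptors coupled to the stimulatory G protein, and it acts through protein kinase A and the EPAC exchange factors. In T cells a rise of cyclic AMP restrains signalling from the antigen receptor, and phosphodiesterases end that signal. The members differ in what they cleave and in what governs them. PDE3B is inhibited by cyclic GMP, PDE2A is stimulated by cyclic GMP, and PDE1B depends on calcium and calmodulin. PDE4A, PDE4B and PDE4D are the rolipram-sensitive enzymes specific for cyclic AMP, while PDE7A and PDE8A are cyclic AMP enzymes that rolipram does not inhibit.

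The targeted gene was read first in every library. In CPM (counts relative to the library total, which was scaled by trimmed mean of M-values), *Satb1* was at 97.8 and 91.6 in WT at day 0, 144 and 125 in KO at day 0, 96.5 and 116 in WT at day 5, and 56.5 and 62.3 in KO at day 5. At day 0 both libraries labelled KO were thus above both WT libraries, against the label, and at day 5 both were below. The day 0 difference did not pass (log2 0.51 ± 0.15, adjusted p = 0.125, edgeR) and that at day 5 did (-0.84 ± 0.15, adjusted p = 0.0162). These are counts over the whole gene, which do not tell which of its exons the reads came from. The libraries are therefore named by their labels throughout, and a direction between genotypes is a direction between labels. Gene counts per library ranged from 4170126 to 11117971, and replicate 1 of KO at day 0 was the deepest. The T-cell markers *Cd3d*, *Cd3e*, *Cd3g*, *Cd8a* and *Cd8b1* summed to 9521 to 10683 CPM at day 0 and 6160 to 6871 CPM at day 5, and *Cd4* had at most 7 counts in a library. The 5 moved unequally. In WT, means at day 0 and day 5 were 3860 and 1239 CPM for *Cd8b1*, 1430 and 783 for *Cd8a*, and 1065 and 569 for *Cd3e*. They were 2341 and 2120 CPM for *Cd3g* and 1549 and 1575 for *Cd3d*. Of the other marker lists, the B-cell genes summed to 122 to 167 CPM at day 0 and 67.4 to 84.4 CPM at day 5, the myeloid genes to 93.0 to 136 and then 203 to 273 CPM, the NK genes to 10.7 to 17.3 and then 37.5 to 54.1 CPM, the 4 globin genes summed to at most 0.904 CPM, and the endothelial genes *Cdh5* and *Kdr* had at most 3 counts. The regulatory T-cell markers *Foxp3*, *Il2ra* and *Ikzf2* summed to 26.5 and 29.2 CPM in WT at day 0 but 128 and 136 CPM in KO at day 0, and lay between 1695 and 2169 CPM at day 5, when most of the sum was *Il2ra*, which activated T cells also express.

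All positions are in the GRCm38 assembly. *Pde3b* lies at chr7:114415281-114539251 on the plus strand, and *Pde2a* (chr7:101421691-101512827) and *Pde8a* (chr7:81213596-81334533) are on the same chromosome and strand. *Pde4b* spans chr4:102087543-102607259, *Pde4d* chr13:108449948-109953461, *Pde4a* chr9:21165714-21213248 and *Pde1b* chr15:103503034-103530052, all on the plus strand, while *Pde7a* is on the minus strand at chr3:19223108-19311322. In GENCODE M21, 64.3% of the exon length of *Pde2a* is shared with the gene model *Gm45837* on the same strand, a symbol that the count tables do not hold, so *Pde2a* counts depend on the annotation that was used for counting. *Pde7a* shares 0.62% of its exon length with a gene on the other strand, and the other 6 members share none.

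Promoter sequence was read for the members because cyclic AMP itself acts on transcription through CREB-family factors, which bind the cyclic AMP response element. RefSeq start sites gave 17 windows of 300 bases (250 before the start and 50 from it) for 6 of the 8 members, and none for *Pde3b* or *Pde7a*. The full element, TGACGTCA, was in 0 of the 17 windows and in 1.79% of all 32851 windows. Its core, TGACG on either strand, was in 4 of the 17 windows, 1 each of *Pde2a*, *Pde4a*, *Pde4b* and *Pde8a*, and in 20.8% of all windows. The core is contained in the full element. The AP-1 motif TGANTCA, searched on both strands, was in 0 of the 17 and in 7.81% of all. The windows of the 3 members that carried the core and changed in culture in both genotypes are printed here, because those genes moved with culture, from 150 bases before the start through the first 30 bases of the transcript, with the core in capitals, which reads CGTCA on the strand printed. It begins 14 bases after the first transcribed base in *Pde2a*, 50 bases before it in *Pde4a* and 34 bases before it in *Pde4b*. Counts per gene do not tell which start site was used, and a match is a match of letters only.
Pde2a, chr7:101450370-101450549, plus strand: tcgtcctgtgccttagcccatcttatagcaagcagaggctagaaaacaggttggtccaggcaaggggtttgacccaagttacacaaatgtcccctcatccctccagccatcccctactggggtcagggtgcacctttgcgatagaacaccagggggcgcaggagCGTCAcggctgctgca
Pde4a, chr9:21183951-21184130, plus strand: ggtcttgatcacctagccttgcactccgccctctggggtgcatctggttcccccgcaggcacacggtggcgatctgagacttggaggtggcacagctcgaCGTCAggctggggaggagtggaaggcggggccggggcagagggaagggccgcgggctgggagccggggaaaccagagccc
Pde4b, chr4:102421405-102421584, plus strand: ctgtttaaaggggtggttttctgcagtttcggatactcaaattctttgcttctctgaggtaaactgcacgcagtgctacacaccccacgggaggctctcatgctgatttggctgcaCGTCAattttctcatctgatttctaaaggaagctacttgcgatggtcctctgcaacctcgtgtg

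Per kilobase of exon, *Pde4b* and *Pde3b* were the most abundant members at day 5 and *Pde4b* alone led at day 0. In WT at day 0, *Pde4b* stood at 32.4 ± 0.0917 CPM per kb (SD, n = 2), *Pde2a* at 9.40 ± 0.173, *Pde3b* at 9.19 ± 0.0806 and *Pde7a* at 8.0 ± 1.98, and the last 3 lay within 1 SD of *Pde7a* of each other. *Pde4d* stood at 1.62 ± 0.209, *Pde8a* at 0.945 ± 0.0861, *Pde1b* at 0.586 ± 0.296 and *Pde4a* at 0.0824 ± 0.0505 CPM per kb. In WT at day 5 the order was *Pde3b* at 16.2 ± 5.83, *Pde4b* at 11.5 ± 1.34, *Pde7a* at 4.25 ± 0.204 and *Pde4d* at 2.31 ± 0.457 CPM per kb, with *Pde2a* down at 0.940 ± 0.112. *Pde3b* and *Pde4b* at that point differed by less than the SD of *Pde3b*. In the libraries labelled KO at day 5, *Pde4b* at 11.4 ± 0.179 and *Pde3b* at 11.0 ± 0.760 CPM per kb were also within the spread.

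The 8 members together fell in level over culture while their make-up shifted from *Pde4b* and *Pde2a* toward *Pde3b*. Their summed level was 62.3 ± 2.03 CPM per kb in WT and 62.9 ± 2.33 in KO at day 0, against 36.7 ± 8.11 in WT and 31.8 ± 0.965 in KO at day 5 (SD, n = 2). *Pde4b* made up 52.1% ± 1.84 of the sum in WT and 50.1% ± 2.29 in KO at day 0, but 31.7% ± 3.35 and 35.8% ± 0.523 at day 5. *Pde3b* made up 14.8% ± 0.610 in WT and 21.6% ± 1.09 in KO at day 0, and 43.4% ± 6.31 and 34.5% ± 1.34 at day 5. *Pde2a* went from 15.1% ± 0.214 in WT and 7.92% ± 0.173 in KO to 2.59% ± 0.268 and 3.62% ± 0.0858. The *Pde7a* share stayed between 9.68% and 17.2% in all 8 libraries, and *Pde4d* held 2.42% to 3.26% at day 0 and 6.20% to 7.08% at day 5. These shares describe RNA, with no test, and not enzyme activity.

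**Figure D1:**
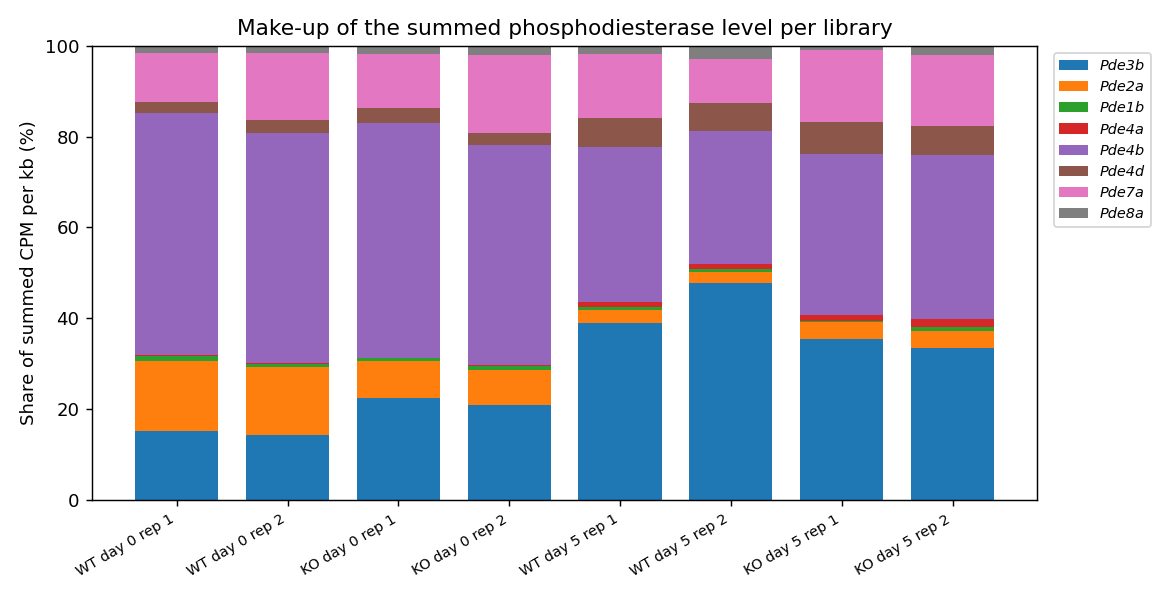
Stacked bars give the share of each member in the summed level of the 8 genes (CPM per kilobase of exon, in percent) for each of the 8 libraries, ordered by day and genotype. *Pde4b* (purple) held 48.5% to 53.4% at day 0 and 29.3% to 36.2% at day 5, while *Pde3b* (dark blue) held 14.3% to 22.4% and then 33.5% to 47.8%.

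The ratio of 2 genes within a library does not depend on how libraries are scaled. For each *Pde4b* read there were 0.245 and 0.243 *Pde3b* reads in WT at day 0, 0.374 and 0.371 in KO at day 0, 0.986 and 1.41 in WT at day 5, and 0.862 and 0.799 in KO at day 5. The 4 groups did not overlap in this ratio. Replicates agreed closely in 3 groups and stood apart in WT at day 5. The ratio shows unequal change of the 2 genes, not which of them moved.

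*Pde3b* was at 84.2 and 83.2 CPM in WT at day 0, 132 and 117 CPM in KO at day 0, 110 and 185 CPM in WT at day 5, and 105 and 95.05 CPM in KO at day 5. These rest on 368 to 1537 counts per library. WT at day 0 was the lowest group, followed by KO at day 5, KO at day 0 and WT at day 5, and the last 2 overlapped. KO at day 0 lay above both WT libraries of that day and KO at day 5 lay below both WT libraries of that day.

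**Figure D2:**
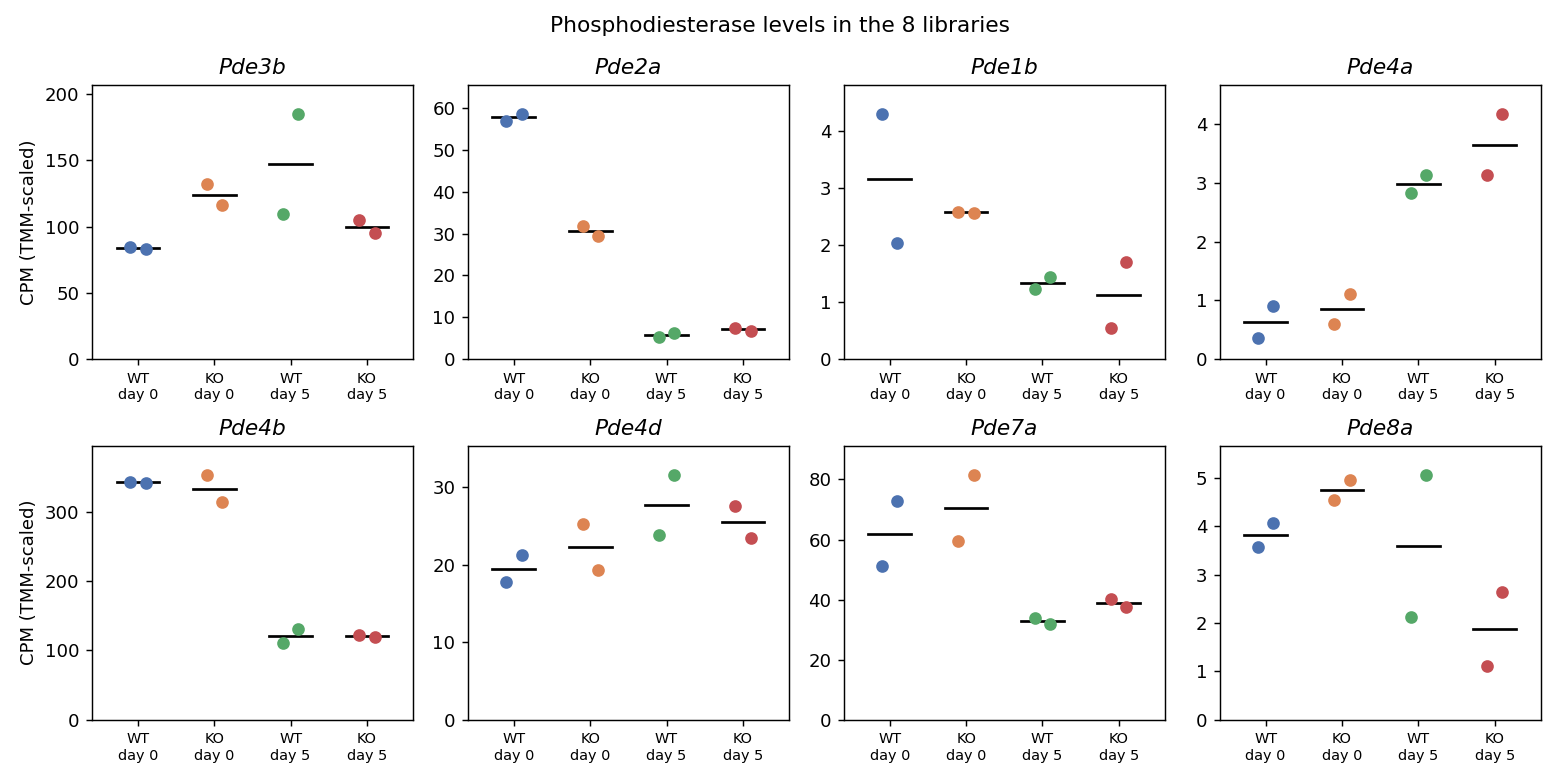
Each panel plots 1 member in CPM (linear axis from 0, its own scale per panel), with a point for each library and a bar for the group mean. *Pde2a* fell from 57.1 and 58.6 CPM in WT at day 0 to 5.29 and 6.27 CPM at day 5, and *Pde3b* shows its widest replicate gap in WT at day 5 (110 and 185 CPM).

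Between genotypes at day 0, *Pde2a* was the member that changed, being lower in the libraries labelled KO. *Pde2a* was at 57.1 and 58.6 CPM in WT and at 31.9 and 29.4 CPM in KO, with no overlap. Its log2 fold change was -0.91 ± 0.17 (SE), or 1.88-fold lower, with an adjusted p of 0.0208 in the quasi-likelihood test of edgeR (Benjamini-Hochberg over 12597 genes, called at an adjusted p under 0.05). This was 1 of 8 members called, where 1.80% of all tested genes were called. *Pde3b* was higher by a log2 fold change of 0.57 ± 0.20 with a 95% interval from 0.13 up to 1.008, which did not pass (adjusted p = 0.221 by edgeR, unadjusted 0.0146). It passed without either of the WT libraries of day 5 (adjusted p 0.0439 and 0.0363) and with no filter on low counts. *Pde8a* did not overlap either, at 3.58 and 4.07 CPM in WT against 4.55 and 4.95 in KO, but its log2 difference of 0.31 ± 0.48 was within the error of the fit. The groups thus did not overlap for 3 of 8 members, beside 43.4% of all tested genes. The other 5 overlapped, with log2 differences from -0.32 for *Pde1b* to 0.37 for *Pde4a*. The largest of them in level, *Pde4b*, had 343 and 342 CPM in WT and 353 and 314 CPM in KO, a log2 difference of -0.04 with an interval of -0.31 to 0.23.

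The *Pde2a* call at day 0 rested on all 4 libraries of that day: without any 1 of them its adjusted p (edgeR) lay between 0.0522 and 0.161, while its log2 fold change stayed between -0.98 and -0.82. The regulatory T-cell markers moved with the same contrast. *Foxp3* rose by 2.48 ± 0.34 and *Ikzf2* by 2.21 ± 0.29 on the log2 scale (adjusted p 0.00271 and 0.00198, edgeR), and the part of these in the *Pde2a* and *Pde3b* values was not tested. In bulk RNA, fewer cells of a type and less RNA per cell cannot be told apart. *Pde2a* is also known from endothelial cells. Of the 3 listed endothelial genes, *Cdh5* and *Kdr* had at most 3 counts in a library, and *Pecam1* was at 337 and 285 CPM in WT and 393 and 329 CPM in KO at day 0. Their part in the *Pde2a* values was not tested.

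At day 5, 0 of 8 members were called between genotypes by the quasi-likelihood test of edgeR, where 1.63% of all tested genes were called. The exact test of edgeR and DESeq2 also called 0 of 8. An unadjusted p under 0.05 was reached by 1775 of all 12597 genes and by 1 of 8 members, *Pde3b*. It was lower in KO by a log2 difference of -0.55 ± 0.20 with an interval of -0.99 to -0.12 (adjusted p = 0.217). This value turned on WT replicate 2. Without that library the log2 difference was -0.13 (adjusted p = 0.807, edgeR), and without WT replicate 1 it was -0.88 with an adjusted p of 0.0198, which passes. *Pde2a* was at 5.29 and 6.27 CPM in WT and 7.36 and 6.82 CPM in KO, a log2 difference of 0.31 ± 0.24 that did not pass (adjusted p = 0.644, edgeR). *Pde7a* did not overlap between genotypes at day 5 either, at 34.0 and 31.8 CPM in WT against 40.1 and 37.5 in KO, and its log2 difference was 0.23 ± 0.21. Groups did not overlap for 3 of 8 members at day 5, beside 45.6% of all tested genes. *Pde4b* differed by -0.01 with an interval of -0.29 to 0.27. Of the 3 regulatory T-cell markers 1 was called at day 5. *Foxp3* was higher in KO, at 51.7 and 61.9 CPM against 23.8 and 9.64 CPM (log2 1.73 ± 0.32, adjusted p = 0.0193, edgeR). *Ikzf2* (log2 0.05 ± 0.30) and *Il2ra* (-0.11 ± 0.18) did not pass. Of the 5 T-cell markers 1 was called, *Cd8a*, at 1216 and 1165 CPM in KO against 832 and 734 CPM (log2 0.60 ± 0.11, adjusted p = 0.0155, edgeR). The other 4 did not pass, with log2 differences from -0.11 for *Cd3d* to 0.19 for *Cd3e*. The part of *Foxp3* and *Cd8a* in the values of the members was not tested.

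**Figure D3:**
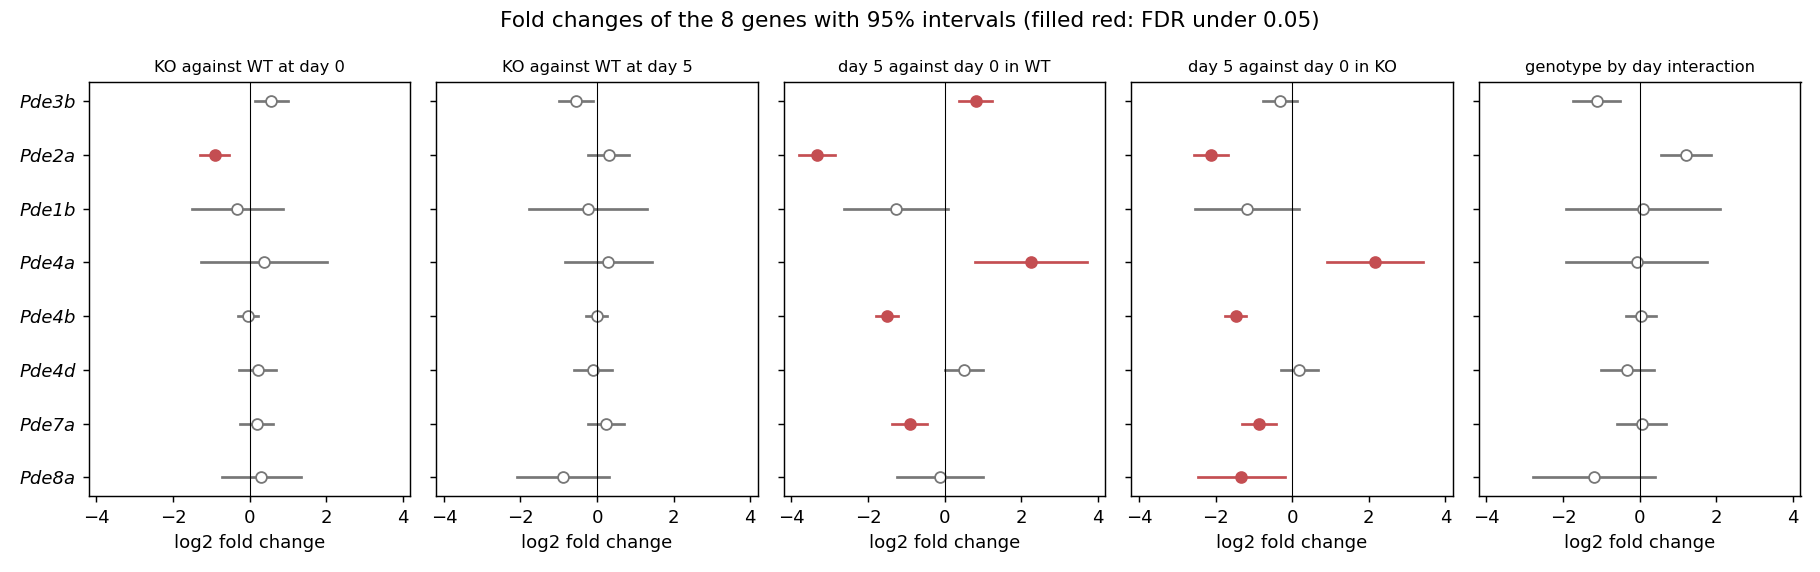
Log2 fold changes of the 8 members in the 5 comparisons, with 95% intervals from the fit and filled red points where the adjusted p was under 0.05. The 2 culture panels hold the red points for *Pde2a*, *Pde4a*, *Pde4b* and *Pde7a* in both genotypes, *Pde3b* in WT at 0.81 and *Pde8a* in KO at -1.33, and at day 0 only *Pde2a* is red.

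Culture changed most of the members, with *Pde2a* and *Pde4b* falling the most in relation to their error. In WT, 5 of 8 members were called against 48.3% of all tested genes, 2 of them higher (24.7% of all genes were called higher) and 3 lower (23.6% were called lower). In KO, 5 of 8 were called against 50.2% of all genes, 1 higher (26.2%) and 4 lower (24.0%). With 8 members, no test of these shares against the background was made, and nothing particular to the family is read from them. The days did not overlap for 7 of 8 members in each genotype, beside 73.7% of all tested genes in WT and 77.9% in KO. Median log2 change over the 8 members was -0.52 in WT and -1.02 in KO, beside -0.04 and -0.05 over all tested genes. Marker lists of other cells moved with the same contrast, with the B-cell and endothelial sums lower and the myeloid and NK sums higher in every day 5 library than in any day 0 library. Of 4 tested myeloid markers, 2 rose (*Cd68*, *Cst3*) and 2 fell (*Csf1r*, *Itgam*) in WT, and in KO the same 2 rose and *Csf1r* fell. The endothelial sum, nearly all *Pecam1*, went from 286 to 393 CPM at day 0 to 91.3 to 102 CPM at day 5, and *Pecam1* fell by 1.73 ± 0.14 in WT and 1.83 ± 0.14 in KO on the log2 scale. The part of these in the changes of the members was not tested.

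*Pde2a*, the cyclic GMP-stimulated enzyme, fell by 3.33 ± 0.21 on the log2 scale in WT, which is 10.1-fold, and by 2.11 ± 0.20 in KO, from a lower start (adjusted p 7.35e-08 and 3.01e-06, edgeR). Day 5 libraries held 26 to 40 *Pde2a* counts each, against 160 to 372 at day 0. *Pde4b*, the most abundant member at day 0 and an enzyme associated with antigen-receptor and CD28 signalling, went from 342 and 343 CPM in WT to 111 and 131 CPM, and from 353 and 314 CPM in KO to 122 and 119 CPM. Its log2 change was -1.50 ± 0.13 in WT and -1.47 ± 0.13 in KO (adjusted p 1.24e-06 in both, edgeR), and no library of one day overlapped the other. *Pde7a* stood at 51.2 and 72.8 CPM in WT and 59.6 and 81.5 in KO at day 0, where replicates spread widely, and between 31.8 and 40.1 CPM at day 5. It fell by 0.91 ± 0.21 in WT and by 0.85 ± 0.20 in KO (adjusted p 0.00350 and 0.00398, edgeR), and without replicate 2 of WT at day 0 the WT change was -0.63 with an adjusted p of 0.0578.

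*Pde4a* was the member that rose in both genotypes, at low counts. It had 2 and 4 counts in WT and 7 and 6 in KO at day 0, and 16 and 13 in WT and 17 and 22 in KO at day 5. In CPM this was 0.358 to 1.10 at day 0 and 2.82 to 4.17 at day 5, with no overlap. Its log2 change was 2.25 ± 0.67 in WT and 2.17 ± 0.58 in KO (adjusted p 0.0148 and 0.00751, edgeR). The call in WT was lost without WT replicate 1 of day 0 or without either WT replicate of day 5 (adjusted p 0.128, 0.0538 and 0.0593, edgeR), and that in KO without replicate 1 of KO at day 0 or replicate 2 of KO at day 5 (0.0783 and 0.0770). *Pde4d*, the third of the rolipram-sensitive members, did not pass in either genotype. It had 17.7 and 21.3 CPM in WT and 25.2 and 19.3 in KO at day 0, against 23.8 and 31.6 and then 27.6 and 23.5 CPM at day 5. Both WT libraries of day 5 lay above both of day 0, and those labelled KO overlapped between the days. Its log2 difference in WT was 0.50 ± 0.23 with an interval of 0.0051 to 1.003 (adjusted p = 0.0885, edgeR) and in KO 0.19 ± 0.22. With a loess correction on the GC content and length of exons the WT value was 0.80 and passed (adjusted p = 0.0141), as it did without WT replicate 1 of day 5 (0.72, adjusted p = 0.0485).

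*Pde3b* rose in WT and did not pass in KO. In WT the log2 change was 0.81 ± 0.20, or 1.75-fold (adjusted p = 0.00555, edgeR), and it was called under each of 17 other settings, between 0.42 without WT replicate 2 of day 5 and 1.17 without WT replicate 1 of day 5. In KO it was -0.32 ± 0.20 with an interval of -0.75 to 0.12 (adjusted p = 0.205), and it passed under 0 of the 17. Read per kilobase, WT went from 9.19 to 16.2 and KO from 13.6 to 11.0 CPM per kb.

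*Pde8a* and *Pde1b* were near the limit of detection. *Pde8a* had 12 and 21 counts in WT and 6 and 14 in KO at day 5, and 18 to 53 counts at day 0. It fell by 1.33 ± 0.52 on the log2 scale in KO (adjusted p = 0.0496, edgeR), a call held in 10 of 17 other settings. It was lost without any 1 of the 4 day 0 libraries or without replicate 1 of KO at day 5 (adjusted p 0.0666 to 0.325), and the log2 change lay between -2.07 and -0.82, the latter without the KO library of day 5. In WT its difference was -0.13 ± 0.52. *Pde1b*, the calcium-dependent enzyme, had 24 and 9 counts in WT and 30 and 14 in KO at day 0 and 3 to 9 counts at day 5. Its day 5 libraries were all below its day 0 libraries, yet the log2 differences of -1.26 ± 0.63 in WT and -1.18 ± 0.62 in KO did not pass (adjusted p 0.116 and 0.133, edgeR).

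These changes are relative to the bulk of all genes. When libraries were scaled by their totals alone, the median log2 change over the genes tested shifted by -0.14 (WT) and -0.18 (KO), while the loess correction on GC and length shifted it by -0.20 and -0.17. Under library totals the *Pde3b* rise in WT was 0.69 and under the offset 0.65, and the falls of *Pde2a*, *Pde4b* and *Pde7a* and the rise of *Pde4a* kept their direction and call under both. Under library totals the split of all called genes went from 3112 higher and 2969 lower to 2668 and 3560 in WT, and from 3296 higher and 3029 lower to 2755 and 3936 in KO. With the correction it was 2595 higher and 3469 lower in WT and 2795 and 3689 in KO.

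The genotype by day interaction is the log2 difference between KO and WT at day 5 minus that at day 0, and asks whether the genotypes changed unequally over culture. 0 of 8 members were called by edgeR (0.159% of all tested genes were). An unadjusted p under 0.05 was reached by 2 of 8, beside 1562 of all 12597 genes. *Pde3b* had -1.12 ± 0.28 with an interval of -1.74 to -0.51 (unadjusted p 0.00181, adjusted p = 0.148), and *Pde2a* had 1.22 ± 0.30 with an interval of 0.57 to 1.87 (unadjusted p 0.00146, adjusted p = 0.139). The day 0 libraries enter this value as they enter the culture comparisons, so the 2 are not separate evidence. For *Pde3b* the adjusted p ranged from 0.00187 to 0.522 over 15 other settings. It passed in 3 of them, which were no filter on low counts, DESeq2 (adjusted p = 0.0165) and the fit without WT replicate 1 of day 5 (0.0182, with a value of -1.45). Without WT replicate 2 of day 5 the value was -0.73 (adjusted p = 0.202, edgeR). *Pde2a* passed in 0 of 15, with values from 0.97 to 1.30. *Pde8a* had -1.20 ± 0.74, and the other 5 members had values from -0.32 to 0.08, with *Pde4b* the most tightly bounded at 0.03 (interval -0.36 to 0.42).

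**Figure D4:**
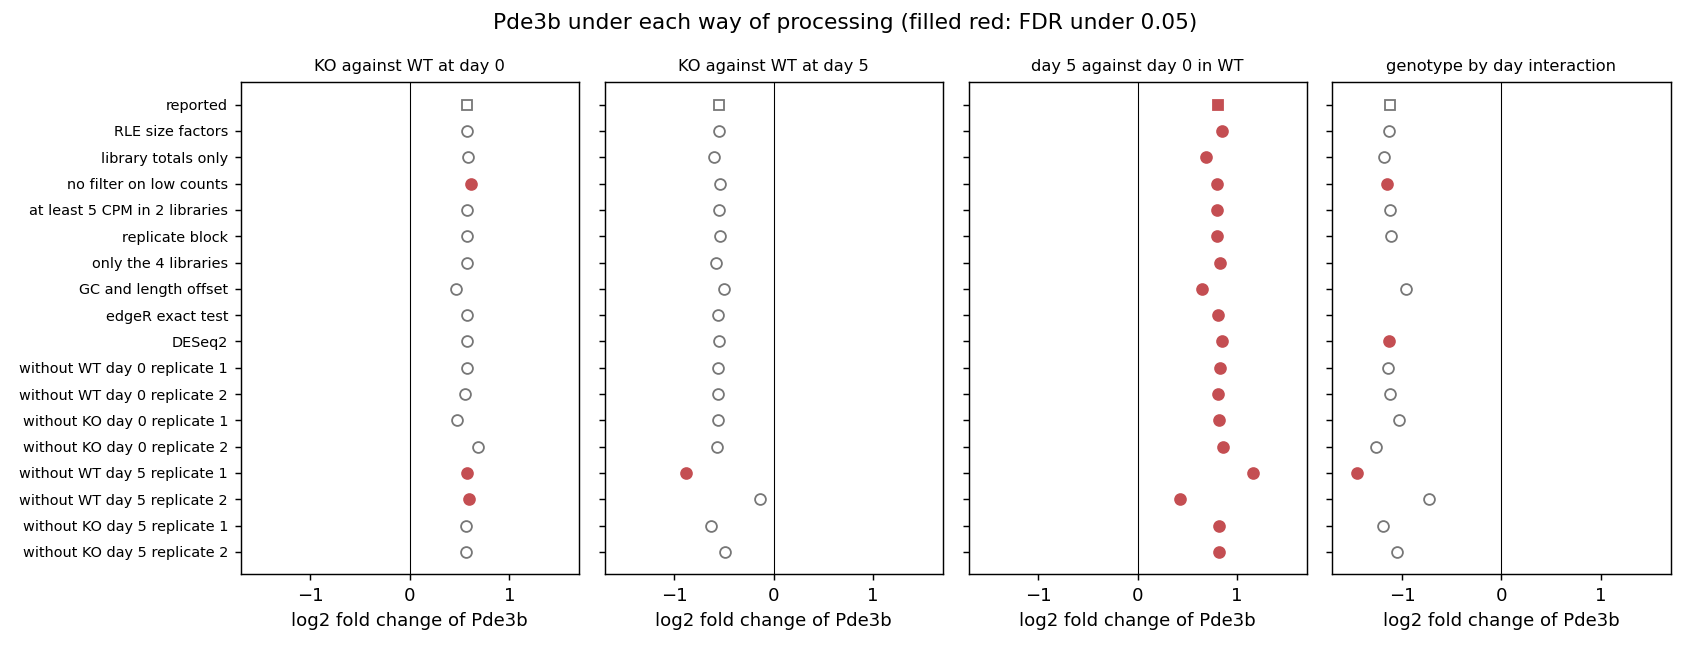
Log2 fold change of *Pde3b* in 4 comparisons under the reported fit (squares) and each other setting (circles), filled red where the adjusted p was under 0.05. The culture panel for WT is red in every row, between 0.42 and 1.17, while the 2 genotype panels and the interaction are mostly open, and the day 0 value shifts most, to 0.69, without replicate 2 of KO at day 0.

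Across the 8 libraries, the genes whose log2 CPM (prior count 2) moved most like that of *Pde3b* were *9330162G02Rik* (Pearson r 0.978), *Ankib1* (0.968), *2610021A01Rik* (0.958) and *Tmem30a* (0.947), among genes of at least 10 CPM on average. This is a description over 8 libraries that share the group structure. Each of these 4 was higher in WT replicate 2 than in WT replicate 1 of day 5, with *Ankib1* at 48.3 and 61.4 CPM. Their exon GC content was 34.6% to 44.8%, and that of *Pde3b* 44.0%. Among the members GC content went from 43.9% in *Pde7a* to 57.2% in *Pde4a*, with *Pde2a* at 55.5%. With the GC and length offset, the log2 difference of *Pde3b* between KO and WT was 0.46 at day 0 and -0.50 at day 5, and *Pde2a* at day 0 was -0.92 with its call kept (adjusted p = 0.0247, edgeR).

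Beyond the members, 16 other cyclic nucleotide phosphodiesterase genes were listed and 7 were tested. *Pde3a*, the paralogue of *Pde3b*, had 0 to 6 counts per library and was not tested. 1 of the 7 was called at day 0 (1.80% of all genes were), *Pde5a*, a cyclic GMP-specific enzyme, named here after its values were seen because it stayed under 10 CPM. It had 1.07 and 2.26 CPM in WT and 7.63 and 9.91 CPM in KO at day 0 and 2.21 to 3.53 CPM at day 5, with a log2 rise at day 0 of 2.41 ± 0.46 (adjusted p = 0.0208, edgeR). Between genotypes at day 5 and for the interaction, 0 of 7 passed in edgeR (1.63% and 0.159% of all genes did). There 1 and 2 of the 7 had an unadjusted p under 0.05, beside 1775 and 1562 of all 12597 genes. In culture 2 of 7 fell in WT, *Pde1a* and *Pde6h*, where 23.6% of all genes were called lower, and 6 of 7 fell in KO, where 24.0% were, which were these 2 with *Pde5a*, *Pde6b*, *Pde8b* and *Pde11a*. *Pde6h*, a cone photoreceptor subunit, was at 530 to 1171 CPM, but its gene model spans *Arhgdib* on the other strand, an abundant gene of lymphocytes, with 1.73% of its exon length inside exons of that gene, and its counts were between 22.7% and 23.8% of those of *Arhgdib* in each library. The strand setting of the counting is not stated, so reads in the shared stretch cannot be told apart.

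Genes on the way to and from cyclic AMP are given by count of calls in culture, to be read beside the shares of all tested genes called higher (24.7% in WT, 26.2% in KO) and lower (23.6% and 24.0%). Of 3 tested adenylyl cyclases, 3 fell in WT and 2 in KO, and the most abundant, *Adcy7*, went from 227 to 255 CPM at day 0 to 82.4 to 108 CPM at day 5 (log2 change -1.47 ± 0.13 in WT and -1.24 ± 0.12 in KO). *Adcy3* fell in WT by 1.27 ± 0.32, and *Adcy6* fell in both genotypes under 10 CPM. Of 4 tested G protein alpha subunits, *Gnas*, a stimulatory subunit, rose by 0.48 ± 0.13 in WT and 0.35 ± 0.13 in KO, and in KO *Gnai2* rose by 0.51 ± 0.15 and *Gnal* fell by 0.84 ± 0.17. Among 6 tested receptors that raise cyclic AMP, 2 rose and 2 fell in each genotype. *Ptger2*, the prostaglandin E2 receptor EP2, rose in both and was also higher in KO at day 0, at 25.9 and 25.0 CPM against 15.2 and 10.6 CPM in WT (log2 0.97 ± 0.20, adjusted p = 0.0324, edgeR). *Ptger4* rose in WT and *Adora2a*, the adenosine receptor, rose in KO, whereas the VIP receptor *Vipr1* fell, from 12.8 to 17.2 CPM to 0.368 to 1.69 CPM.

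Of 6 subunits of protein kinase A, the main effector, 3 rose and 1 fell in WT, and 5 rose and 1 fell in KO, beside the same shares of all genes. *Prkacb*, a catalytic subunit, fell by 0.70 ± 0.13 in WT and 0.89 ± 0.13 in KO, whereas the regulatory subunits *Prkar1a* (0.67 ± 0.14 in WT, 0.50 ± 0.14 in KO) and *Prkar2a* (1.22 ± 0.24 and 0.88 ± 0.23) rose, as did *Prkar2b* in both and, in KO, *Prkar1b* and the catalytic *Prkaca*. *Pkig*, an inhibitor of the kinase, rose in both genotypes, under 10 CPM. *Rapgef4*, which encodes EPAC2, fell by 2.20 ± 0.24 in WT and 2.83 ± 0.25 in KO from 134 to 184 CPM at day 0, and *Rapgef3*, which encodes EPAC1, rose to at most 5.49 CPM. Of 9 tested anchoring proteins of the kinase, 1 rose (*Akap1*) and 4 fell in WT (*Akap8*, *Akap11*, *Akap13* and *Ezr*), and 4 fell in KO (*Akap5*, *Akap8*, *Akap10* and *Akap13*). The 2 efflux transporters *Abcc4* and *Abcc5* fell in both genotypes, *Abcc5* by 2.47 ± 0.21 in WT and 2.06 ± 0.20 in KO.

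Among 8 transcription factors and coactivators of the CREB family, 1 rose and 4 fell in WT, and 1 rose and 3 fell in KO. The gene that rose was *Crem*, a cyclic AMP-responsive member whose short products include the repressor ICER. It had 13.95 and 14.7 CPM in WT and 24.9 and 24.0 CPM in KO at day 0, and 145 to 174 CPM at day 5. Its log2 rise was 3.48 ± 0.16 in WT and 2.76 ± 0.15 in KO, and at day 0 it was higher in KO by 0.78 ± 0.17 (adjusted p = 0.0374, edgeR). *Creb1*, *Crebbp* and *Crtc3* fell in both genotypes and *Crtc1* in WT, with *Crebbp* falling by 1.23 ± 0.12 in WT and 1.51 ± 0.12 in KO. *Pag1*, which anchors the inhibitory kinase CSK, fell in both, and *Csk*, a target of protein kinase A, fell in WT. Of 7 tested partners of phosphodiesterases, 2 rose (*Arrb1*, *Pik3cg*) and 1 fell (*Arrb2*) in WT, and 2 rose (*Arrb1*, *Rack1*) and 2 fell (*Pde4dip*, *Pik3r5*) in KO. Both arrestins are known to bind PDE4 enzymes. Sources of cyclic GMP had 2 tested genes, and 0 were called in any of the 5 comparisons by edgeR. Both had an unadjusted p under 0.05 in WT culture only, as had 6867 of all 12597 genes in that comparison. Over the 53 tested genes of these pathway lists, 32 were called in WT culture and 33 in KO culture (48.3% and 50.2% of all tested genes were), and 2 between genotypes at day 0 (1.80% of all). Between genotypes at day 5 and for the interaction 0 of 53 were called by edgeR, with 9 and 7 at an unadjusted p under 0.05, beside 1775 and 1562 of all 12597 genes.

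**Figure D5:**
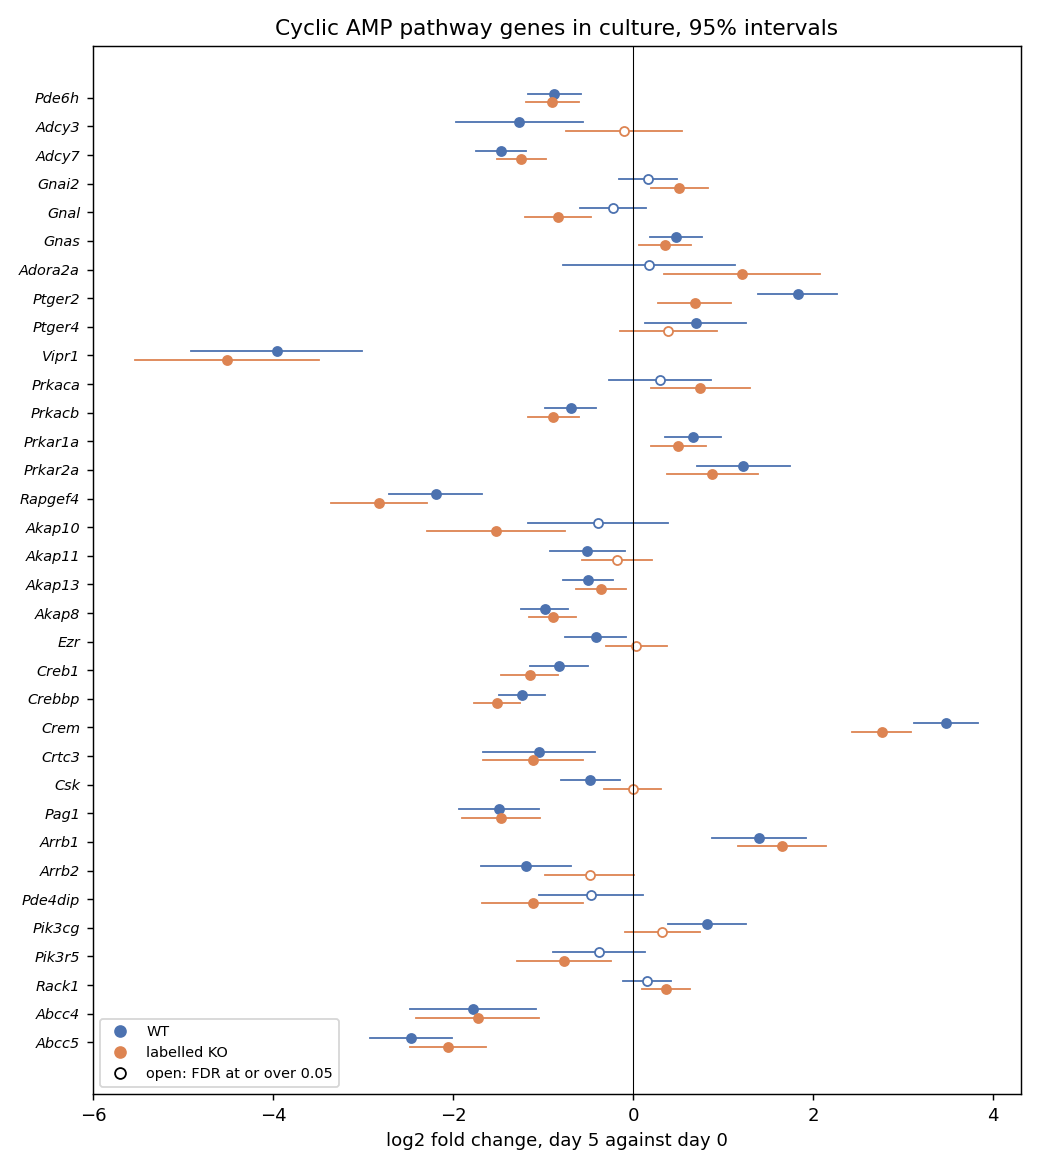
Log2 fold change from day 0 to day 5, with 95% intervals, for the pathway genes named by rule, in WT (blue) and in the libraries labelled KO (orange), with open points where the adjusted p was 0.05 or more. *Crem* stands farthest to the right (3.48 and 2.76) and *Vipr1* farthest to the left, and *Pde6h* overlaps *Arhgdib* on the other strand.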

How the data were processed

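Gene counts of 8 libraries were used, each a table of 48321 gene symbols with the reads counted per gene. Per the labels, RNA was extracted with Trizol, libraries were made with a NEBNext Ultra RNA kit and 50 bp reads were sequenced on a HiSeq2500. The authors deposited raw counts, neither normalized nor pooled. The submitters' processing notes name HISAT2 2.1.0, HTSeq 0.11.1 and the mm10 (GRCm38) build, and the annotation and strand setting are not given in the sources used here. Between 21.2% and 24.5% of the records in a table were assigned to a gene. Rows of the counting program that name no gene were left out.

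Genes were tested with the quasi-likelihood method of edgeR 4.0.16 in R 4.3.3: 1 fit of all 8 libraries with a mean per group, TMM scaling, the default filter (minimum count 10), 5 comparisons and Benjamini-Hochberg adjustment over the 12597 genes. Standard errors and 95% intervals came from the fit. The common biological coefficient of variation was 15.0%. Replicates differed by more than sampling noise (chi-square per degree of freedom 5.08 to 10.3), and none was merged. Intervals of CPM values are the SD of 2 libraries, and counts cover counting error only. Symbols were matched to GENCODE M21 (46989 of 48321), and promoter windows came from RefSeq (GRCm38.p6).

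The members, gene lists and tests were chosen with earlier results of these data known. All members were named in every comparison. A gene of another list was named if it was called and reached 10 CPM in a group of that comparison, up to 6 per list, and otherwise only as part of a small count. Some listed genes that are included in counts and sums are not reported here by name. The alternatives were RLE factors, library totals, no filter, a stricter filter (5 CPM or more in 2 libraries), a fit of the 4 libraries compared, the replicate number as a block, a GC and length offset (loess span 0.3), the edgeR exact test, DESeq2 1.42.0 and leaving out each library.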

Additional observations from a re-analysis of the deposited data

Results flagged for a closer look

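*Satb1*, the targeted gene, differed between the days in its contrast of labels: the log2 difference between KO and WT at day 5 minus that at day 0 was -1.34 ± 0.21 (adjusted p = 0.0269, edgeR). It was 0.51 ± 0.15 at day 0 (adjusted p = 0.125) and -0.84 ± 0.15 at day 5 (adjusted p = 0.0162).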

How the results depend on the processing

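Of the member fold changes recomputed under the alternatives, 592 kept their direction and side of the threshold, 17 lost and 9 gained a call, and 28 changed sign, all 28 uncalled in both cases. Members called at day 0 between genotypes were 1, and 2 with no filter on low counts (*Pde3b* was added, adjusted p 0.0378) and 0 to 2 when single libraries were left out. At day 5 they were 0 to 1 and in KO culture 3 to 5 without single libraries. For the interaction they were 0, and 1 with no filter, 1 with DESeq2 and 0 to 1 without single libraries. *Pde8a* in KO culture was not called with RLE factors (adjusted p 0.0552) or DESeq2 (0.120). *Pde1b*, *Pde4a* and *Pde8a* have no value in settings whose filter removed them, and the exact test and the fit of 4 libraries have no interaction. Over all genes, the calls at day 0 were 227, but 434 with no filter and 449 with the exact test. At day 5 they were 205, but 418, 454, 350 with DESeq2 and 119 with the GC and length offset, and for the interaction 20, but 154 with no filter, 144 with DESeq2 and 13 with the offset. Leaving out single libraries gave 38 to 276 at day 0, 32 to 249 at day 5 and 0 to 41 for the interaction. The causes were not tested.

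Signs changed for small differences. With no filter *Pde4b* was 0.00106 at day 0 and 0.00535 at day 5. With the offset *Pde4a* at day 5 was -0.00377 and *Pde1b* in the interaction -0.14, and with library totals *Pde4b* in the interaction was -0.0236. Without single libraries, values at day 0 ranged from -0.74 to 0.33 for *Pde1b*, -0.19 to 1.11 for *Pde4a*, -0.0539 to 0.45 for *Pde7a*, -0.0158 to 0.41 for *Pde4d* and -0.13 to 0.0749 for *Pde4b*. At day 5 they ranged from -0.12 to 0.11 for *Pde4b*, -0.30 to 0.10 for *Pde4d* and -1.24 to 0.35 for *Pde1b*, and in WT culture from -0.81 to 0.43 for *Pde8a*. For the interaction they ranged from -0.92 to 0.67 for *Pde1b*, -0.82 to 0.47 for *Pde4a*, -0.22 to 0.28 for *Pde7a* and -0.10 to 0.12 for *Pde4b*.

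Nothing in the labels pairs libraries of the same number. Deviations of replicate 1 correlated at 0.118 between WT at day 0 and day 5, 0.228 between KO at day 0 and day 5, and 0.00438 and -0.0165 between genotypes at day 0 and day 5. With the replicate block, members called were 1, 0, 5, 5 and 0 in the 5 comparisons, as without it, and all genes called were 216, 215, 5999, 6291 and 29. With 2 libraries a group, each SD rests on 1 degree of freedom, and *Pde1b*, *Pde4a* and *Pde8a* rest on at most 53 counts in a library.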
